A study of Homo sapiens with 2 samples.

Results

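PAX2, PAX8, LHX1, WT1, SIX2, EYA1, SALL1, GATA3 and OSR1 are transcription factor genes of the developing kidney, and their RNA was followed in HEK293 cells with and without LARP7. These 9 genes were chosen by name and found by joining transcript identifiers to GENCODE v29, which gave 65 of 197318 transcripts and 9 of 57894 genes. HEK293 is a cell line of human embryonic kidney origin. The tested cells were LARP7 knockout clone 1-11 (2 libraries) and the cells they were compared with were parental HEK293 (2 libraries), both grown in the same medium with no further treatment named. The study asked how loss of LARP7 alters the expression and splicing of RNA. All knockout libraries come from 1 clone, so the loss of LARP7 and other differences of that clone cannot be told apart. The labels do not say whether separate cultures were used. The p-values below therefore rest on the variation among these 4 libraries alone, and it may be technical.

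In the vertebrate embryo, OSR1, LHX1, PAX2 and PAX8 mark the intermediate mesoderm and the nephric lineage that forms from it. SIX2, EYA1, SALL1 and WT1 act in the nephron progenitors of the cap mesenchyme, and GATA3 acts in the nephric duct and ureteric bud, as known mainly from mice. LARP7 binds 7SK RNA, the scaffold that holds the elongation kinase P-TEFb inactive.

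Total estimated reads were 16838501 and 16218587 in the knockout libraries and 18483220 and 12851942 in the parental libraries. LARP7 itself, measured as reads scaled to library size with TMM factors (CPM), had 36.1 and 31.9 CPM in the knockout libraries against 59.8 and 46.5 CPM in parental cells. That difference was -0.65 on the log2 scale, with an adjusted p of 0.135 in edgeR, and was not called. The deleted part of LARP7 is not named in the labels, so its reads check the genotype only in part. The locus entry that held the 7SK reads (RF00100, chosen after its values were seen) had 169.5 and 204.5 CPM in the knockout libraries and 5572 and 5481 CPM in parental cells, and it fell by 4.89 on the log2 scale (edgeR, adjusted p = 1.13e-06). The labels of the knockout sample disagree: the source field reads wildtype, the title and genotype read knockout, and the genotype was followed. Small RNA genes took 33.2 and 37.5% of TPM (a level per transcript length) in the knockout libraries and 38.4 and 54.5% in the parental libraries. TPM of other genes is therefore pressed down most in parental replicate 2. For this reason TPM was used to order genes by level, and CPM to compare the groups.

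WT1 and GATA3 each have alternative splice junctions that change a few bases, and these sequences are shown because transcripts described below differ at them. WT1 codes for a zinc finger protein whose alternative 9-base segment, known as KTS, separates its last zinc fingers. The junction is on the minus strand at chr11:32391972-32391980 (GRCh38), and capitals mark the 9 bases that are present or absent.
WT1 with KTS: ggactcatacagGTAAAACAAgtgaaaagc
WT1 without KTS: ggactcatacaggtgaaaagc
In GATA3, transcripts GATA3-202 and GATA3-201 differ by a 3-base segment at chr10:8063993-8063995 on the plus strand (GRCh38), again in capitals, and also in the ends of their first and last exons.
GATA3-202: ggtccagcacagAAGgcagggagtgtg
GATA3-201: ggtccagcacaggcagggagtgtg

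WT1 also starts at more than 1 place, and the bases before its upstream start and before its start in intron 1 are shown because reads were divided between transcripts from both. RefSeq (GRCh38.p14) held promoter windows of 250 bases for 5 of the 9 genes, 14 windows in all, and the upstream window is given only where it lies outside annotated WT1 exons. The upstream stretch covers chr11:32435631-32435789 and the intron 1 window chr11:32430814-32431063, both on the minus strand, and capitals mark a GC box.
WT1 upstream start: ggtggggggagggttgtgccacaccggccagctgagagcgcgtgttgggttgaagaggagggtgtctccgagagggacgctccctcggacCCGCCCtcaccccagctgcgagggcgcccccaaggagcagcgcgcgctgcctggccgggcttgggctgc
WT1 intron 1 start: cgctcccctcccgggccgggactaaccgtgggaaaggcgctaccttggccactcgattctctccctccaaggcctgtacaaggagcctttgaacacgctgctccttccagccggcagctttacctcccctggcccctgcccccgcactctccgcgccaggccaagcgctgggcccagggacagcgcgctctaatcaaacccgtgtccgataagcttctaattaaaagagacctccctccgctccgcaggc
The GC box (GGGCGG, or CCGCCC for the other strand) was present once before the upstream start and absent from the intron 1 window. Of all 35116 promoter windows of that length, 42.6% held at least 1. Neither full WT1 window held TATAAA or its reverse complement, which 10.7% of all windows held. The full WT1 windows held 19 and 18 CpG dinucleotides, against a median of 11 over all windows. The SIX2 window held 2 GC boxes and 26 CpG dinucleotides, the PAX8 window held no GC box and 11, and both PAX2 windows held no GC box. The 6 GATA3 windows held 0 to 5 GC boxes and 4 to 30 CpG dinucleotides, and 1 of them held the only TATAAA among the 14 windows.

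The 9 genes covered a wide range of levels. SALL1 was the highest at a mean of 8.24 TPM over the 4 libraries, followed by SIX2 at 7.44 TPM. WT1 (2.37 TPM), GATA3 (2.07 TPM), EYA1 (1.90 TPM) and PAX2 (1.70 TPM) lay close together. LHX1 averaged 0.384 TPM, PAX8 0.0239 TPM and OSR1 0.0120 TPM. SALL1 stood at the 64.8 percentile of protein-coding genes by mean TPM and OSR1 at the 18.5 percentile. Between neighbours in this order, the ranges over the 4 libraries were apart only from SIX2 to WT1, from PAX2 to LHX1 and from LHX1 to PAX8. The orders of SALL1 and SIX2, and of WT1, GATA3, EYA1 and PAX2, were not separated beyond the spread of the libraries.

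Of the 9 genes, 7 had enough reads to be tested, and 0 of these 7 passed the test between knockout and parental cells (edgeR quasi-likelihood, adjusted p under 0.05). Over all 18484 genes tested, 154 passed, which is 0.833%. At an unadjusted p under 0.05, 1 of the 7 was found, EYA1, while 14.3% of all genes were. DESeq2 and limma voom also called 0 of the 7, while DESeq2 called 2.75% and limma voom 0.812% of the genes they tested. The log2 fold change was above 0 for 5 genes and below 0 for 2, with a median of 0.19 against 0.0024 over all genes tested. With an offset for transcript length, the median of the 7 was -0.03. The groups did not overlap in CPM for 2 of the 7, EYA1 and GATA3, while 46.3% of all genes had groups that did not overlap, 23.5% with the knockout higher and 22.7% with the knockout lower.

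**Figure D1:**
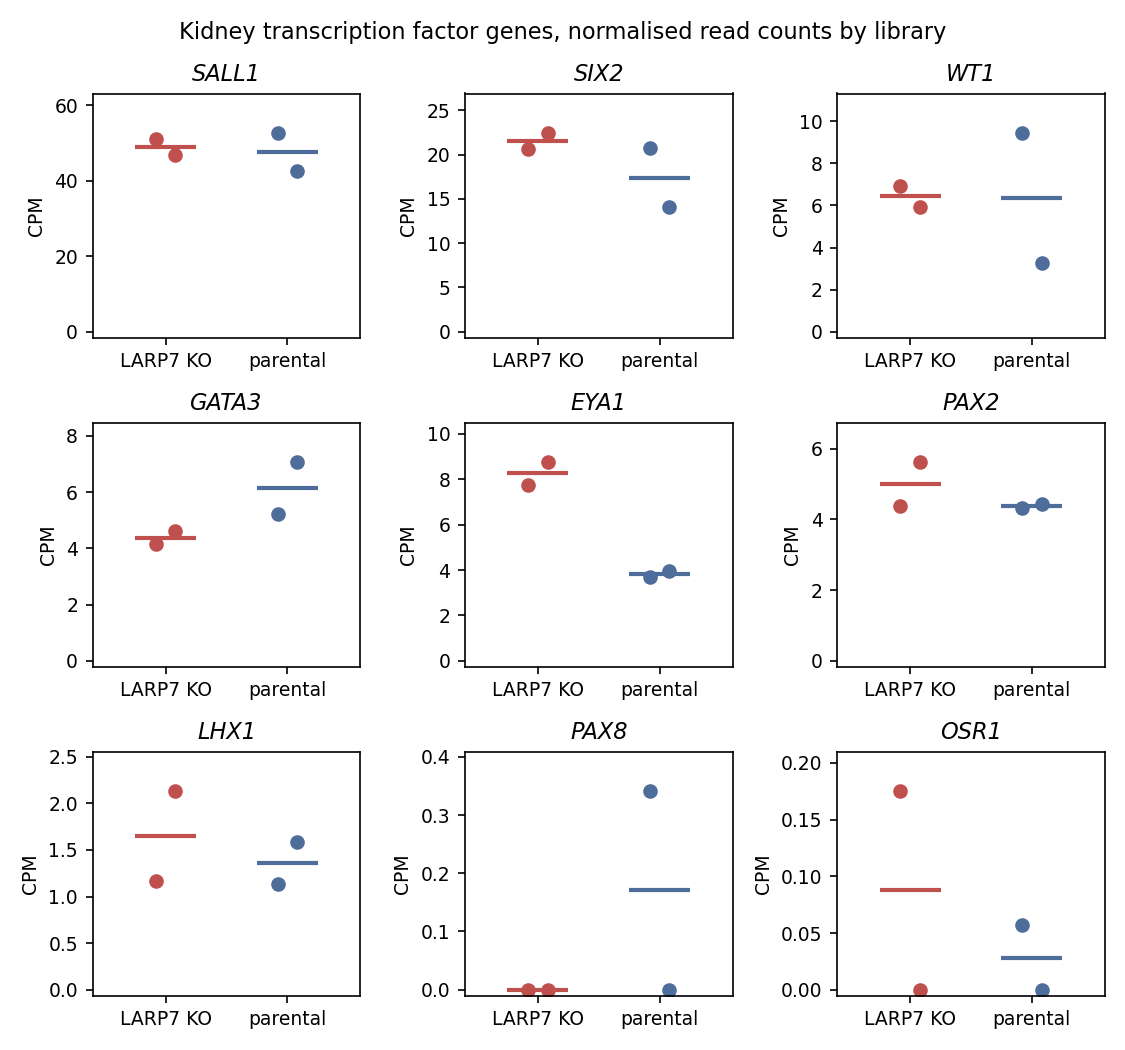
Normalised read count (CPM, linear axis) of each of the 9 genes in the 2 LARP7 KO libraries and the 2 parental libraries; points are libraries, replicate 1 left of replicate 2, and bars are group means. For EYA1 the KO libraries (7.76 and 8.76 CPM) lie above the parental ones (3.69 and 3.97 CPM), and for WT1 the parental libraries lie on both sides of the KO libraries.

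Among the genes of the early nephric lineage, PAX2 was the best covered. PAX2, a paired-box factor needed for the nephric duct and for nephron formation in mice, lies at chr10:100735603-100829941 on the plus strand (GRCh38). It had 75 and 95 reads in the knockout libraries and 76 and 56 in the parental libraries, or 4.38 and 5.62 CPM against 4.32 and 4.45 CPM. Knockout replicate 1 lay between the parental libraries, so the groups overlapped. The log2 fold change was 0.19 ± 0.31 (SE; edgeR, adjusted p = 0.836). The 95% interval of -0.42 to 0.80 leaves room for a change in either direction.

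LHX1, a LIM homeobox factor of the intermediate mesoderm and renal vesicle, was near the lower limit of what could be tested. Its reads numbered 20 and 36 in the knockout libraries and 20 and 20 in the parental libraries, or 1.17 and 2.13 CPM against 1.14 and 1.59 CPM. The groups overlapped, and the log2 fold change was 0.28 ± 0.55 (SE; edgeR, adjusted p = 0.865). Without knockout replicate 2 it was -0.21, so its direction rests on that library. LHX1-DT, an antisense RNA that starts 124 bases from LHX1, had 18 and 44 reads in the knockout libraries and 2 and 19 in the parental libraries. It also had an overlap between groups and did not pass (log2 fold change 1.24, edgeR, adjusted p = 0.604).

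PAX8 and OSR1 were too low to test. PAX8, a paired-box factor that acts with PAX2, had 0 reads in both knockout libraries, against 6 and 0 reads in the parental libraries. A count of 0 allows up to 3 reads, or 0.175 and 0.178 CPM in the knockout libraries, for counting error only. OSR1, a zinc finger factor of the intermediate mesoderm, had 3 and 0 reads in the knockout libraries and 1 and 0 in the parental libraries. Reads of PAX8-AS1, which overlaps PAX8 exons on the other strand, were 0 and 4 in the knockout libraries and 2 and 0 in the parental libraries. A difference in PAX8 or OSR1 was not detectable at this depth.

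Among the nephron progenitor genes, EYA1 was the one whose groups stood apart with the knockout higher. EYA1 is a transcriptional coactivator and phosphatase that works with SIX2 and related homeobox factors, and its gene lies at chr8:71197433-71592025 on the minus strand (GRCh38). It had 133 and 148 reads in the knockout libraries and 65 and 50 in the parental libraries. As CPM these are 7.76 and 8.76 in the knockout libraries and 3.69 and 3.97 in the parental libraries, means of 8.26 ± 0.70 and 3.83 ± 0.20 (SD, n = 2 each). The knockout level was 2.16-fold the parental one, a log2 fold change of 1.11 ± 0.28 (SE) with a 95% interval of 0.56 to 1.66. With adjustment over all 18484 genes it was not called (edgeR, adjusted p = 0.135). With 1 library left out, the edgeR adjusted p was 0.418 without knockout replicate 1, 0.633 without knockout replicate 2, 0.044 without parental replicate 1 and 0.0123 without parental replicate 2. The last 2 fits take the spread from the knockout pair alone and assume that the lone parental library varies like it, and they called 11.4% and 9.27% of all genes. It also passed with no filter on low counts (1.12, edgeR, adjusted p = 0.0348), a fit that called 2.64% of all genes.

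Reads of EYA1 were also divided between protein-coding and retained-intron transcripts. Protein-coding transcripts of EYA1 had 92.6 and 102.1 reads in the knockout libraries and 63.3 and 36.0 in the parental libraries. Retained-intron transcripts, which keep an intron in the RNA, had 37.4 and 42.9 reads in the knockout libraries and 0 and 13.1 in the parental libraries. For both kinds the knockout libraries lay above the parental ones in reads. Retained-intron transcripts held 28.1 and 29% of EYA1 reads in the knockout libraries and 0 and 26.1% in the parental libraries, so knockout and parental replicate 2 were close. By TPM the shares were 37.5 and 60.9% in the knockout libraries and 0 and 34.8% in the parental libraries. In knockout replicate 2, EYA1-208, a short transcript with 5.96 reads, held 37.3% of EYA1 TPM.

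Single EYA1 transcripts were thinly covered. EYA1-201 had 25.9 and 56.4 reads in the knockout libraries and 0 in both parental libraries. EYA1-202, the main parental transcript, had 29.1 and 38.1 reads in the knockout libraries and 40.3 and 29.5 in the parental libraries. EYA1-211, a retained-intron transcript, had 36.4 and 37.0 reads in the knockout libraries and 0 and 13.1 in the parental libraries. EYA1-205 had 24.8 and 7.53 reads in the knockout libraries and 19.2 and 1.94 in the parental libraries. For EYA1-205 the libraries within each group differed more than the group means did. EYA1-201 was seen in the knockout libraries and listed at 0 in the parental ones. Salmon divides reads among transcripts that share most of their bases, so these numbers carry an assignment error that the test does not see.

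SIX2, the homeobox factor that keeps nephron progenitors from differentiating in mice, has a single annotated transcript here. It had 354 and 379 reads in the knockout libraries and 365 and 177 in the parental libraries, or 20.7 and 22.4 CPM against 20.7 and 14.1 CPM. Parental replicate 1 lay level with knockout replicate 1, so the groups were not clearly apart. The log2 fold change was 0.30 ± 0.22 (SE; edgeR, adjusted p = 0.582). It was 0.61 without parental replicate 1 and 0.05 without parental replicate 2.

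SALL1, a zinc finger factor of the cap mesenchyme, gave the most precise comparison. It had 876 and 793 reads in the knockout libraries and 925 and 537 in the parental libraries, or 51.1 and 46.9 CPM against 52.6 and 42.6 CPM. Both knockout libraries lay between the parental ones. The log2 fold change was 0.04 ± 0.15 (SE; edgeR, adjusted p = 0.939), with a 95% interval of -0.25 to 0.33. The sign turned with an offset for transcript length (-0.11) and without knockout replicate 1 (-0.02) or parental replicate 2 (-0.10).

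WT1, needed in mice for survival of the kidney mesenchyme and later for podocytes, lies at chr11:32387775-32435630 on the minus strand (GRCh38). It had 119 and 100 reads in the knockout libraries and 166 and 41 in the parental libraries. The levels were 6.94 and 5.92 CPM in the knockout libraries and 9.43 and 3.26 CPM in the parental libraries. The parental libraries enclosed both knockout libraries, and the means were 6.43 ± 0.73 and 6.34 ± 4.37 CPM (SD, n = 2 each). The log2 fold change was -0.00091 ± 0.43 (SE; edgeR, adjusted p = 1.00). Without parental replicate 1 it was 0.98 (edgeR, adjusted p = 0.0888) and without parental replicate 2 it was -0.56, so no direction can be given. WT1-AS, which overlaps WT1 exons on the other strand, had 7.12 and 9.19 reads in the knockout libraries and 17.0 and 10.0 in the parental libraries. The strand setting of the counting is not given in the sources used here, so reads of overlapping antisense genes may not be told apart.

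GATA3, a zinc finger factor of the nephric duct that lies downstream of PAX2 and PAX8 in mice, was the one gene of the 9 with both knockout libraries below both parental ones. It had 71 and 78 reads in the knockout libraries and 92 and 89 in the parental libraries, or 4.14 and 4.61 CPM against 5.23 and 7.07 CPM. The log2 fold change was -0.48 ± 0.31 (SE) with a 95% interval of -1.09 to 0.12, and it did not pass (edgeR, adjusted p = 0.533). With an offset for transcript length it was -1.22. In parental replicate 2, GATA3 stood at 3.63 TPM, against 1.61 TPM in parental replicate 1 and 1.63 and 1.41 TPM in the knockout libraries. Transcripts that do not span the 3-base segment held 12.3 reads there, and 1.41 at most in the other libraries.

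**Figure D2:**
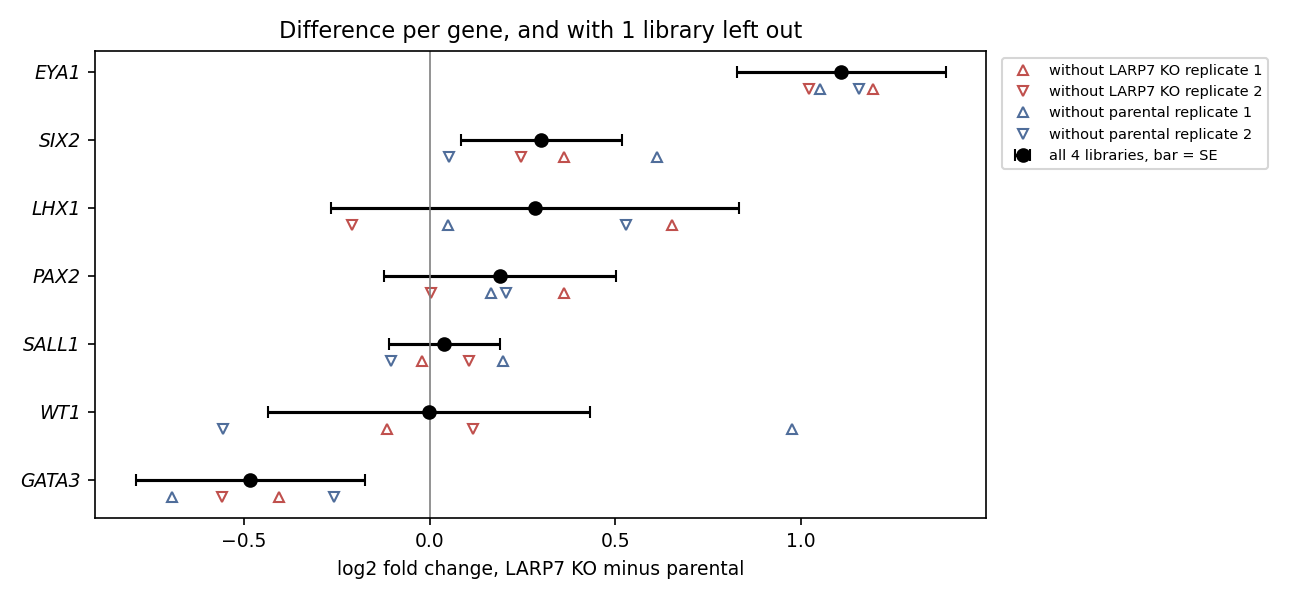
Log2 fold change, LARP7 KO minus parental, of the 7 tested genes (black point, bar = SE) and the value with 1 library left out (open triangles, coloured by the group that lost a library). EYA1 stays between 1.02 and 1.19 and GATA3 between -0.69 and -0.26, while WT1 spans -0.56 to 0.98.

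Transcript usage, the share of a gene's reads on each of its transcripts, could be tested for 5 of the 9 genes, PAX2, WT1, EYA1, SALL1 and GATA3. Usage changed in 0 of these 5, against 65 of 9475 genes in all, which is 0.686% (edgeR diffSpliceDGE, adjusted p under 0.05). The smallest value was that of EYA1 (unadjusted p = 0.0263 from edgeR, adjusted p = 0.719), and the adjusted p was 1 for the other 4. An unadjusted p under 0.05 from this test (Simes) was found for 1 of the 5 genes and for 4.61% of all. The F test of diffSpliceDGE gave unadjusted p-values of 0.0297 for EYA1, 0.0345 for SALL1 and 0.0424 for PAX2. Their adjusted p-values in that F test were 0.453, 0.492 and 0.548, and the unadjusted share over all genes was not counted for it. Of the 65 transcripts, 38 had reads in some library and 17 had at least 10 reads in 2 libraries. With 2 against 2 libraries the smallest p of an exact permutation test is 1 in 3, so the shares of transcript classes below are given as values, and the usage test is the test made for each gene.

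The KTS-containing WT1 transcripts had 62.9 and 85.9 reads in the knockout libraries and 102.5 and 0.206 in the parental libraries. The transcripts without KTS had 56.1 and 12.1 reads in the knockout libraries and 52.0 and 37.6 in the parental libraries. By TPM, the KTS-containing share was 53.3 and 84.6% in the knockout libraries and 65.7 and 0.627% in the parental libraries. Parental replicate 2, with 41 WT1 reads in all, stood apart from the other 3 libraries, and the shares of the knockout libraries lay around that of parental replicate 1. The 51-base alternative exon at chr11:32416490-32416540 was in 21.9 and 46.9% of informative WT1 TPM in the knockout libraries and in 46.8 and 38.9% in the parental libraries.

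WT1 reads were also assigned to transcripts of both starts whose upstream bases are given above. As for EYA1, Salmon divided the reads of these classes and of the KTS classes among transcripts. Reads over the first exons or the junctions themselves were not counted. Transcripts from the upstream start had 56.1 and 49.7 reads in the knockout libraries and 97.6 and 36.4 in the parental libraries. Transcripts from the start in intron 1, chiefly WT1-209, had 62.9 and 48.2 reads in the knockout libraries and 57.0 and 1.38 in the parental libraries. In knockout replicate 1, WT1-209 held the 62.9 reads of both this class and the KTS-containing class. The KTS, 51-base exon and start classes divide the same transcripts, so they are not separate measurements. By TPM the intron 1 start gave 53.3 and 48.2% in the knockout libraries and 29.8 and 2.61% in the parental libraries. The knockout shares lay above both parental shares, of which the lower came from the library with the fewest WT1 reads. How often shares in other genes lie apart in this way was not counted.

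GATA3-202, with the 3-base segment, held 53.9 and 65.5% of informative GATA3 TPM in the knockout libraries and 26.4 and 40.3% in the parental libraries. Its reads numbered 40.3 and 53.8 in the knockout libraries and 27.0 and 33.9 in the parental libraries. GATA3-201, without it, had 29.3 and 24.2 reads in the knockout libraries and 64.1 and 42.8 in the parental libraries. These transcripts also differ in their exon ends, and reads over the junction itself were not counted. The shares did not overlap between groups, and the usage test gave an adjusted p of 1 (edgeR diffSpliceDGE, and 0.769 with its F test). How often shares lie apart over all transcripts was not counted. In CPM, 46.3% of all genes had groups that did not overlap, so the separation alone is not read as a difference.

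In PAX2, transcript PAX2-201 had 0.381 and 4.43 reads in the knockout libraries and 26.7 and 17.8 in the parental libraries. PAX2-202 had 24.4 and 46.9 reads in the knockout libraries and 22.5 and 22.7 in the parental libraries, and PAX2-208 had 25.8 and 32.7 reads against 20.9 and 14.5. PAX2-201 was thus listed low in both knockout libraries. PAX2-205 has the same annotated start and end as PAX2-201, and held 17.7 reads in knockout replicate 1 and 0 in the other libraries. How reads were divided between these transcripts was not tested, so the low PAX2-201 count of that library cannot be read alone. The 69-base exon of PAX2 at chr10:100786943-100787011 was listed in knockout replicate 1 only, through 17.7 reads of PAX2-205. In SALL1, the shorter transcript SALL1-205 had 48.5 and 39.2 reads in the knockout libraries and 126.5 and 59.8 in the parental libraries. It held 5.53 and 4.95% of SALL1 reads in the knockout libraries and 13.7 and 11.1% in the parental libraries. These shares did not overlap (edgeR diffSpliceDGE, adjusted p = 1, and 0.492 with its F test), and the rate over all transcripts was not counted. LHX1 and SIX2 had fewer than 2 transcripts that could be kept, and LHX1-201 held 100% of LHX1 reads in the knockout libraries and 95% and 87.1% in the parental libraries.

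**Figure D3:**
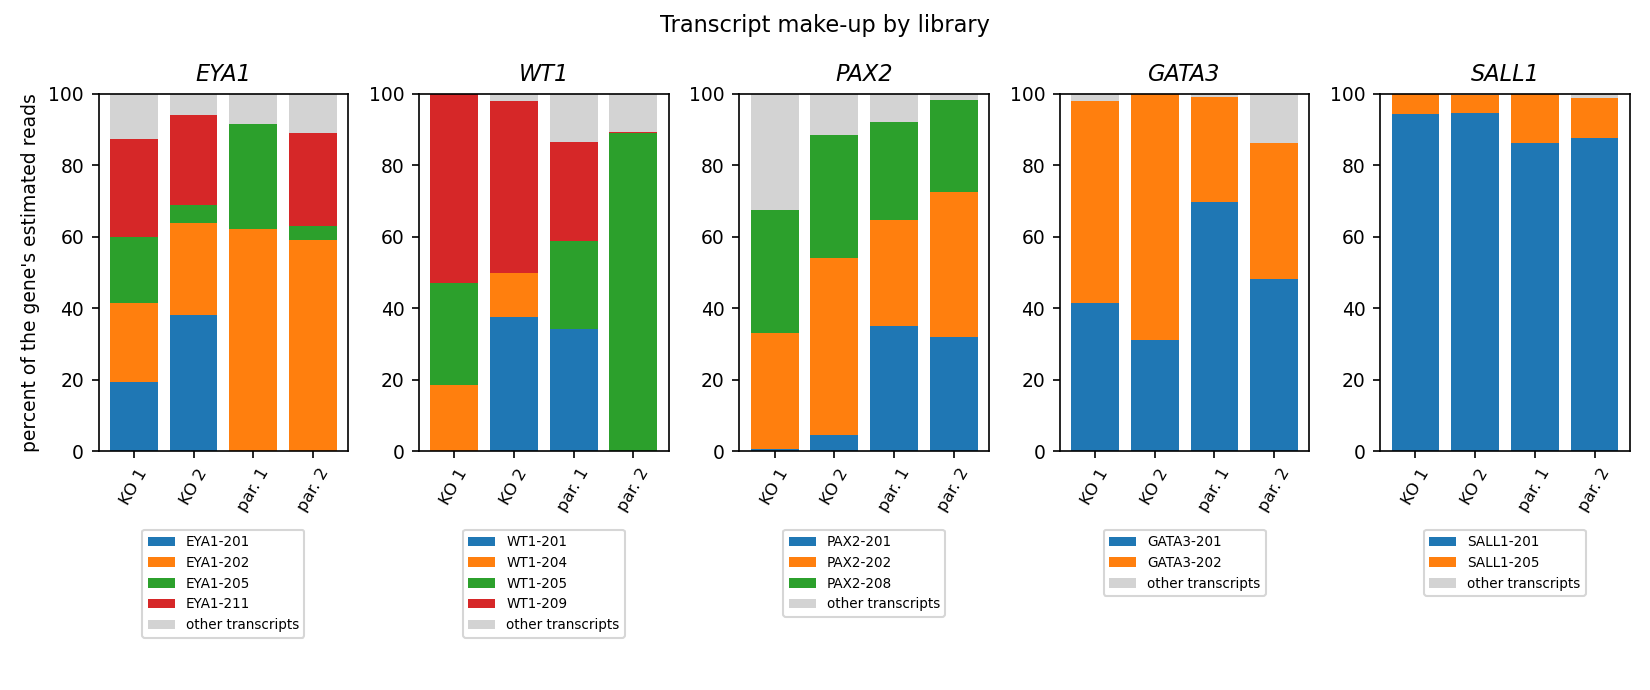
Share of each gene's estimated reads (percent) on its named transcripts in the 2 LARP7 KO and the 2 parental (par.) libraries; grey is all other transcripts. SALL1-205 holds 5.53 and 4.95% in the KO libraries and 13.7 and 11.1% in the parental libraries, and WT1-205 holds 88.8% in parental replicate 2.

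Each of the 9 genes has paralogs or partners that could be read in the same libraries, in lists of related genes. Of 43 paralogs and partners, 33 were tested and 0 passed (edgeR, adjusted p under 0.05), while 0.833% of all genes did. An unadjusted p under 0.05 was found for 8 of the 33, and for 14.3% of all genes. With no filter on low counts 3 of 39 passed, all higher in the knockout. Without parental replicate 1, 5 of 34 were higher, and without parental replicate 2, 4 were higher and 1 lower of 35, fits that called 11.4% and 9.27% of all genes. Their log2 fold change was above 0 for 23 and below 0 for 10, with a median of 0.25 against 0.0024 over all genes. Several stood above the 9 genes in level, among them EYA3 (29.7 TPM), PAX6 (26.8 TPM), EYA4 (16.5 TPM) and SALL2 (10.6 TPM), all as means of 4 libraries. DACH2, a partner of the EYA proteins, had 10.3 and 11.3 CPM in the knockout libraries and 3.64 and 5.00 CPM in the parental libraries. Its log2 fold change was 1.33 ± 0.28 (SE; edgeR, adjusted p = 0.078), with adjusted p-values from 0.000133 to 0.27 over its alternatives. DACH2 passed with DESeq2 (adjusted p = 0.0133), and EYA1 did not (adjusted p = 0.104). GATA2, a paralog of GATA3, stood at 29.7 and 26.0 CPM in the knockout libraries and 17.8 and 17.2 CPM in the parental libraries (log2 fold change 0.67 ± 0.17, edgeR, adjusted p = 0.135). GATA2 passed with no filter (edgeR, adjusted p = 0.0371), a fit that called 2.64% of all genes, but did not pass under 10 of its 14 alternatives. With a library left out, its log2 fold change ranged from 0.57 to 0.77. GATA3, on the other side of 0, passed under none of its alternatives.

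Other regulators of the nephric lineage were described in the same way. Of 30 such genes, 21 were tested and 0 passed (edgeR), while 0.833% of all genes did. An unadjusted p under 0.05 (edgeR) was found for 4 of the 21, and for 14.3% of all genes. Their log2 fold change was above 0 for 17 and below 0 for 4, with a median of 0.18 against 0.0024 over all genes. The highest by TPM were FOXC1 (30.6 TPM) and HOXD10 (30.5 TPM). FOXC1, a forkhead factor of the intermediate mesoderm, had a log2 fold change of 0.09 ± 0.16 and HOXD10 of 0.02 ± 0.13 (edgeR, adjusted p = 0.852 and 0.959). TFAP2B, GRHL2, IRX1 and IRX2 had 0 reads in all 4 libraries.

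Among 34 genes of the signals that induce ureteric bud and nephron, 26 were tested, and 1 rose and 0 fell (edgeR, adjusted p under 0.05), while 0.33% of all genes rose. That gene was ALDH1A2, the enzyme that makes retinoic acid in the embryo. ALDH1A2 had 119.0 and 116.7 CPM in the knockout libraries and 51.8 and 52.2 CPM in the parental libraries, 2.27-fold higher in the knockout (log2 fold change 1.18 ± 0.12, edgeR, adjusted p = 0.00454). It passed under all 14 alternatives run. SLIT2, a guidance ligand that limits where the ureteric bud forms in mice, was the highest gene of the list at 42.0 TPM. It stood at 303.8 and 276.2 CPM in the knockout libraries and 193.7 and 180.1 CPM in the parental libraries (log2 fold change 0.63 ± 0.12, edgeR, adjusted p = 0.0532). SLIT2 passed under 10 of 14 alternatives, DESeq2 and limma voom among them. RET, the receptor on the ureteric bud tip, had 97 and 147 reads in the knockout libraries and 94 and 99 in the parental libraries. GDNF, its ligand from the mesenchyme, had 31 and 17 reads against 24 and 3. The list had 20 log2 fold changes above 0 and 6 below, with a median of 0.22.

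**Figure D4:**
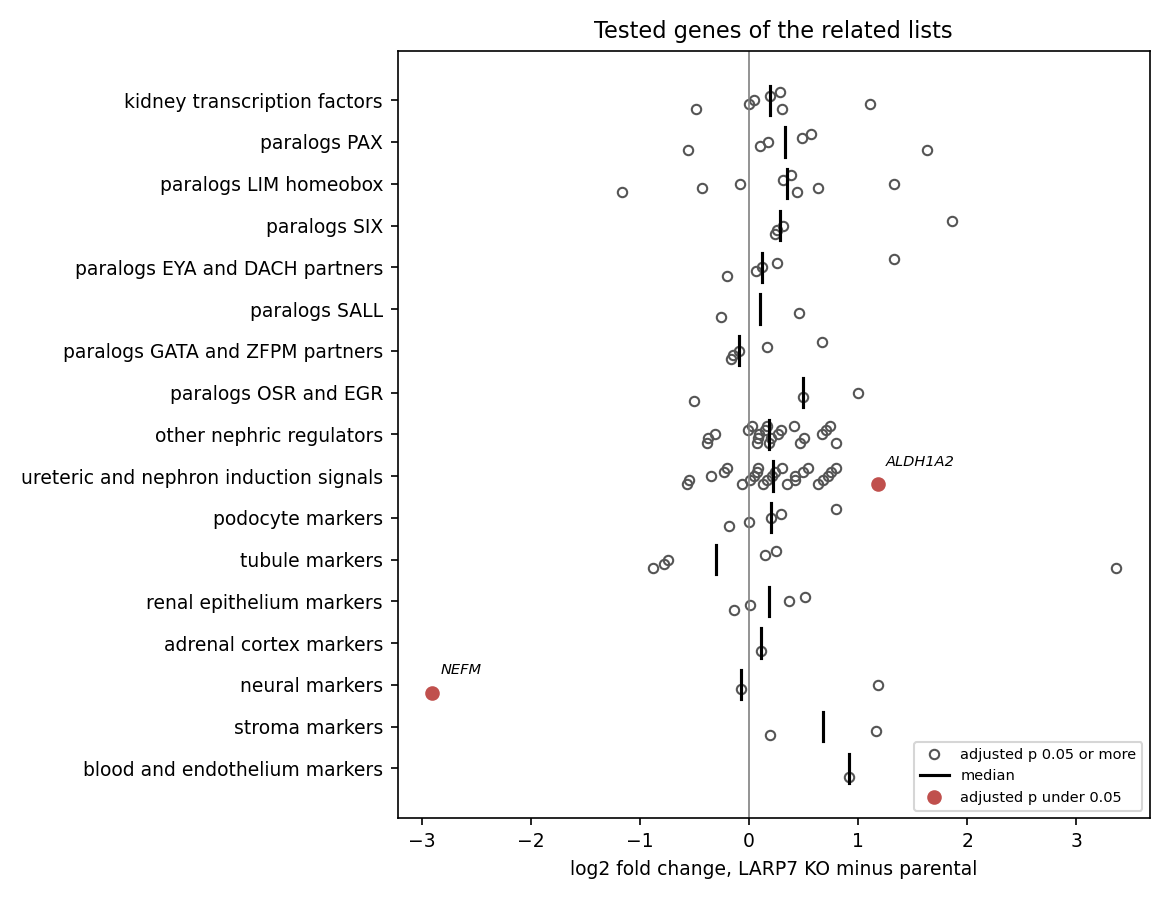
Log2 fold change, LARP7 KO minus parental, of every tested gene of the 9 and of each related list (open circles, adjusted p of 0.05 or more; red, adjusted p under 0.05; black bar, median). ALDH1A2 (1.18) and NEFM (-2.91) are the genes that passed.

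The tissue label was set against markers of kidney cell types. Of 20 tubule markers, 9 had 0 reads in every library, among them UMOD and SLC12A3, and 6 could be tested. Of these 6, 0 passed (edgeR), while 0.833% of all genes did. In CPM the knockout libraries lay above the parental ones for 3 and below them for 3. Over all genes tested, 23.5% lay above and 22.7% below, so groups that do not overlap are common. AQP1, a water channel, had 12 and 13 reads in the knockout libraries and 2 and 0 in the parental libraries. AQP3, another water channel, had 36 and 39 reads in the knockout libraries and 34 and 26 in the parental libraries, and SLC3A1, an amino acid transporter subunit, had 32.6 and 33.1 reads against 27.2 and 22.4. LRP2, the endocytic receptor of the proximal tubule, stood at 15.8 and 23.2 CPM in the knockout libraries and 31.1 and 34.1 CPM in the parental libraries (log2 fold change -0.74 ± 0.21, edgeR, adjusted p = 0.164). LRP2 passed with no filter (edgeR, adjusted p = 0.0116), a fit that called 2.64% of all genes, but did not pass under 10 of its 14 alternatives. With a library left out, its log2 fold change ranged from -1.04 to -0.49. CUBN, its partner receptor, had 39 and 23 reads in the knockout libraries and 44 and 48 in the parental libraries, and ATP6V1B1, a proton pump subunit, had 7 and 7 reads against 13 and 10. Of 8 podocyte markers, 5 were tested and 0 passed (edgeR). CD2AP (18.3 TPM), PODXL (5.68 TPM) and PTPRO (1.09 TPM) were read in all libraries, as means of 4 libraries, and NPHS1, which codes for nephrin of the slit diaphragm, had 0 reads in both knockout libraries and 1 and 0 in the parental libraries. Of 7 renal epithelium markers, 4 were tested and 0 passed (edgeR), with KRT18 (9.77 TPM), CDH1 (1.57 TPM) and KRT8 (1.31 TPM) the highest. The progenitor genes SALL1, SIX2, EYA1 and WT1 were thus read in cells in which most defining tubule markers were at or near 0. Neural markers, which HEK293 cells are known to carry, included NEFM, a neurofilament gene. NEFM fell to 7.76 and 8.58 CPM in the knockout libraries, against 49.4 and 73.6 CPM in the parental libraries (log2 fold change -2.91 ± 0.22, edgeR, adjusted p = 0.00164), while 0.503% of all genes fell. NEFL, a second neurofilament gene and the highest of the list, had 82.7 and 92.0 CPM in the knockout libraries and 87.0 and 97.5 CPM in the parental libraries (log2 fold change -0.08, edgeR, adjusted p = 0.838). CHGA had 15 and 17 reads in the knockout libraries and 11 and 2 in the parental libraries (1.18, edgeR, adjusted p = 0.547). The summed TPM of the 10 neural markers was 21.8 and 24.1 in the knockout libraries and 30.0 and 30.8 in the parental libraries. Without NEFM the sum was 19.3 and 21.6 in the knockout libraries, against 18.3 and 16.9 in the parental libraries. The lower sum thus rests on NEFM alone. Most of this remainder was NEFL, whose CPM overlapped between the groups. TPM is pressed down most in parental replicate 2, so no direction is drawn from the remainder. TH, DBH and other defining genes of that list are among 7 of the 10 that had too few reads to test. Of the stroma, adrenal cortex, and blood and endothelium markers, 2, 1 and 1 were tested and 0 passed (edgeR), the highest being COL1A1 (1.56 TPM), STAR (0.217 TPM) and CD14 (0.213 TPM). With 0.833% of all genes called, 0 calls in marker lists this short say little about those cell types.

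For the 3 best covered genes, protein-coding genes of similar level were ranked by how closely their centred log2 CPM followed the gene over the 4 libraries (Euclidean distance). For SALL1 the nearest of 4724 genes were HMGN3 (distance 0.0154) and LMAN2 (0.0155), and for SIX2 the nearest of 4299 were MGAT1 (0.0348) and FAM200A (0.0451). For WT1 the nearest of 2600 were TNIP2 (0.0606) and MAP6D1 (0.137). TNIP2 had 6.89 and 5.98 CPM in the knockout libraries and 9.32 and 3.10 CPM in the parental libraries, with the same split between the parental libraries as WT1. With 4 libraries and many genes, close matches of this kind are a description only.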

How the data were processed

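Total RNA was sequenced in 2 LARP7 KO and 2 parental HEK293 libraries (TRIzol, Ovation SoLo kit, per the labels' protocols). The deposited tables give estimated counts, TPM and effective length per transcript, per the file headers. The submitters' processing notes name Salmon 1.6 and STAR 2.5.3a with build hg38, besides cutadapt 1.6, Picard, SAMtools 1.3.1 and edgeR 3.24.3. For the role of each tool, the transcript annotation and the strand setting, the answer is not given in the sources used here. Effective length, deposited by the authors as transcript length corrected for fragment length, served only for a length offset.

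Transcripts were joined to GENCODE v29, and 684 of 198002 did not match (0.0631 to 0.0711% of reads). Estimated counts were summed per gene, rounded and tested with edgeR 4.0.16 in R 4.3.3 (filterByExpr, TMM, quasi-likelihood F test, Benjamini-Hochberg over all genes tested). Each SE was taken from the log2 fold change and the square root of F, and 95% intervals are 1.96 SE on either side. Usage was tested with diffSpliceDGE (Simes) on transcripts with at least 10 reads and 5% of their gene in 2 libraries. The steps were run on simulated counts with large changes and a fixed spread that was not taken from these libraries. That run does not show how well small changes or low genes would be found here. Replicates differed by more than sampling noise (chi-square per degree of freedom 8.74 in the knockout and 30.7 in the parental pair), and read counts limit the precision of low genes.

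Named are the 9 genes, their transcripts with at least 10 reads in 2 libraries, overlapping genes, LARP7 and 7SK, called list genes and nearest patterns; of the 3 highest genes by TPM of each list, which the rule also selects, the text names some. DACH2, AQP1, SLC3A1, CUBN, EYA1-208, TFAP2B, GRHL2, IRX1, IRX2, RET, GDNF, UMOD, SLC12A3, NPHS1, TH, DBH and PAX2-205 were named after their values were seen. Some genes of the lists are not reported here by name. The genes and lists were chosen with earlier results of these data known. Alternatives were DESeq2 1.42.0, limma voom (limma 3.58.1), other scalings and filters, a length offset, libraries left out in turn and a replicate block.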

Additional observations from a re-analysis of the deposited data

How the results depend on the processing

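Over 97 alternatives for the 7 tested genes, 79 kept the direction and the side of the threshold, 4 (all of EYA1) passed the threshold and 14 turned the sign. The number of the 7 genes called was 0 and became 1, EYA1, with no filter on low counts and with a replicate block, and was 0 to 1 when each library was left out. Over all genes, 154 were called, against 459 with DESeq2, 831 with no filter, 84 with an offset for transcript length and 200 to 2265 when each library was left out. Replicate numbers were shared between groups, but the same-numbered libraries gave a correlation of deviations of 0.132 over only 2 pairs, so they were not taken as pairs. With the replicate block, 1656 of the 18484 genes tested were called, 768 higher and 888 lower in the knockout. EYA1 had a log2 fold change of 1.10 in that fit (edgeR, adjusted p = 0.011). The block called 6 of the 33 tested paralogs and partners and 3 of the 21 other nephric regulators. It also called 5 of the 26 induction genes, and all of these were higher. GATA2 (edgeR, adjusted p = 0.00552) was among the 6, and LRP2, lower in the knockout, was also called (edgeR, adjusted p = 0.000557). LHX1 turned to -0.033 with the length offset and ranged from -0.21 to 0.65 with a library left out. SALL1 turned to -0.11 with the length offset and ranged from -0.10 to 0.20. WT1, near 0, was 0.0033 with DESeq2, 0.10 with limma voom, 0.012 with upper quartile factors, 0.0999 with library size alone, 0.0057 with no filter, 0.0030 with the stricter filter and 0.146 with the replicate block, and ranged from -0.56 to 0.98 with a library left out. Usage was called in 65 genes, in 133 with no share minimum, in 21 with a share of at least 10%, in 122 with the F test, in 0 with the replicate block and in 0 to 92 with a library left out, and in 0 of the kidney genes under each of these. The cause of these shifts was not tested. Scaling by library size alone moved the median of all genes to 0.0952. Reads below about 20 per library limit LHX1, PAX8, OSR1 and single transcripts.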

Other observations

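Of 101 distinct tested genes in the related lists, 11 had an unadjusted p under 0.01 from edgeR (10.9%, against 5.36% of all genes), 9 higher and 2 lower in the knockout. Beside those described, LHX8, a LIM homeobox gene, stood at 4.49 and 5.09 CPM in the knockout libraries and 1.76 and 2.06 CPM in the parental libraries (log2 fold change 1.33, edgeR, adjusted p = 0.157). HOXC11 stood at 13.5 and 15 CPM in the knockout libraries and 8.98 and 8.49 CPM in the parental libraries (0.70, adjusted p = 0.183 in edgeR). FREM2, a basement membrane gene of the ureteric bud, stood at 70.8 and 74.4 CPM in the knockout libraries and 53.2 and 55.7 CPM in the parental libraries (0.42, adjusted p = 0.177 in edgeR). PAX1 and SALL2 had log2 fold changes of 1.63 and 0.45 (edgeR, adjusted p = 0.186 for both). These genes were chosen after their values were seen.

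Protein-coding genes within 2 megabases on either side of each gene, a window chosen after seeing the data, had median log2 fold changes between -0.090 (PAX8, 18 genes) and 0.22 (SALL1, 13 genes). Around EYA1 the median over 12 genes was 0.035, and 0 of them were called (edgeR), while 0.833% of all genes tested were. With so few genes, a count of 0 says little about the region. Around PAX2 (53 genes), LHX1 (40), WT1 (24) and SALL1 (13), 1 gene each was called, and 0 around the remaining genes. A regional cause was not tested. Around GATA3 the median over 8 genes was 0.20, on the other side of 0 from GATA3 itself.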
